A study of Rattus norvegicus with 40 samples.

Results

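Gestational intermittent hypoxia was compared with normoxia in microglia from the cervical spinal cord of adult male rats. The comparison takes 10 of the 40 libraries of the series, chosen by their labels: 5 from males of hypoxia litters and 5 from males of normoxia litters. Sprague Dawley dams had breathed air cycling between 10.5% and 21% oxygen (hypoxia) or room air at 21% throughout (normoxia) on gestational days 10 to 21, in daily sessions of 8 hours with 15 cycles each hour. The offspring were born and raised in room air and were 8 weeks old when the cord segments C3 to C6 were taken. Microglia were isolated with magnetic beads carrying an antibody against CD11b, and their total RNA was sequenced. The series design takes 1 male from each of 5 litters per exposure, so each library is a separate animal and litter, and none of these adult animals was itself under hypoxia at sampling.

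Microglia are the resident macrophages of the brain and spinal cord. They survey the tissue, clear debris and synapses, and release cytokines when activated, and they settle in the nervous system before birth, so that a stimulus to the mother falls on cells that may persist into adult life. The cervical segments studied contain the phrenic motor neurons that drive the diaphragm, and intermittent hypoxia during sleep is a feature of sleep apnoea in pregnancy.

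The count table identifies genes by Ensembl ID without a name, and 0 of the 13593 IDs tested could be matched to a symbol in the reference table used here. No gene is therefore named, no sequence is printed, and lists of microglial identity, hypoxia pathway, cytokine and other cell type marker genes were not analysed here. The purity of the isolated cells was likewise not checked on markers. In bulk RNA a difference between fewer cells of a type and less RNA per cell cannot be told apart.

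The male cord libraries were of moderate and unequal depth, and the sex labels fitted the counts. Totals ran from 9257290 to 15574494 reads in normoxia and from 8145033 to 12016434 in hypoxia, with means of 13200000 ± 2750000 and 10100000 ± 1550000 (SD, n = 5 each; exact two-sided permutation p = 0.0714, 0.199 adjusted over 5 library measures). Genes with at least 1 read numbered 16479 ± 980 in normoxia and 16138 ± 545 in hypoxia (n = 5 each; exact permutation p = 0.508). After the 10 libraries were thinned to the lowest of their totals, the means were 16024 ± 662 and 15967 ± 484 (n = 5 each; exact permutation p = 0.865). The same gene was the most abundant in 10 of 10 libraries. It took 3.72% to 6.55% of the reads in normoxia and 3.28% to 5.25% in hypoxia (exact permutation p = 0.19, 0.317 adjusted over 5 measures). In genes picked in the medulla for a difference of over 16-fold between the sexes, the 6 that were high in males summed to 302 to 431 CPM (reads scaled to equal library totals) in the male cord libraries and to at most 1.31 CPM in the female ones.

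Animals of 1 exposure differed among themselves about as much as animals of different exposures. In a principal component analysis of log2 CPM in the 10 libraries, the first component carried 18.5% of the variance and the second 16.8%. On the first, normoxia libraries scored -52 to 34.1 and hypoxia libraries -39.7 to 16.2, and the ranges overlapped widely. On the second, normoxia libraries scored -39.2 to 0.7 and hypoxia libraries -0.5 to 52.2. There the groups touched only through normoxia replicate 1 and hypoxia replicate 5, at 0.7 and -0.5. By the median correlation with the other libraries, 7 of 10 were closer to their own exposure than to the other one. Normoxia replicate 4 and hypoxia replicate 2 had the lowest median correlations within their groups, 0.948 and 0.951, against 0.959 to 0.965 for the other libraries. The library labelled hypoxia replicate 5 went against its label across many genes, as described after the single IDs. No measure here checks the exposure label of an animal. The counts of genes for exposure in the male cord are therefore also given without this library. The principal components, the spread, the overlap of groups and the signs shared with females are given only with it.

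**Figure D1:**
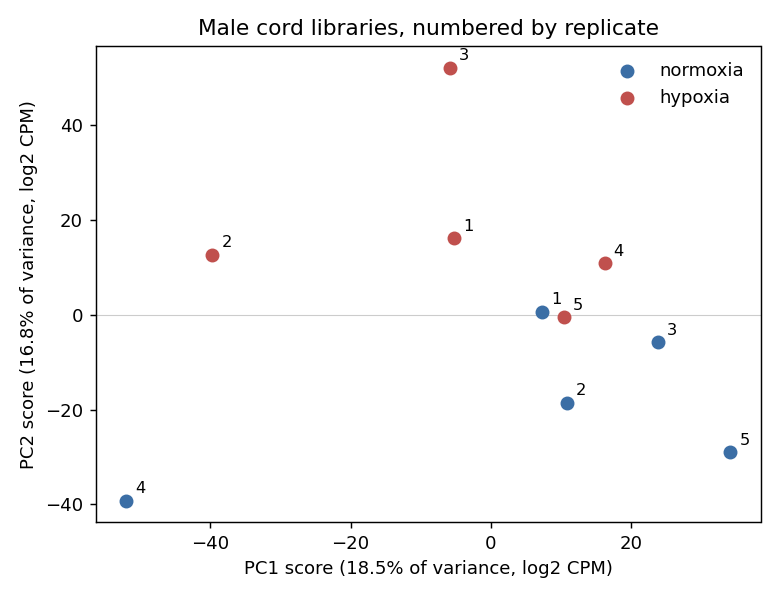
Scores of the 10 male cord libraries on the first principal component (x axis, 18.5% of the variance of log2 CPM) and the second (y axis, 16.8%), with normoxia in blue, hypoxia in red and the replicate number beside each point. Hypoxia libraries lie from -0.5 to 52.2 on the second component and normoxia libraries from -39.2 to 0.7, while the first mixes the exposures.

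With all libraries included, the measured spread between males was somewhat larger in the hypoxia group. The median within-group SD of log2 CPM was 0.262 in male normoxia and 0.294 in male hypoxia, and 7587 of 13593 genes (55.8%) had the larger SD in hypoxia. In the female cord the medians were 0.258 and 0.271, and the share was 49.9%. Whether the spread differs between exposures was not tested. The male hypoxia group includes replicate 5 and had fewer reads on average, and the part of either in its spread was not tested.

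No gene passed the test between hypoxia and normoxia males in the cord. Among 13593 genes tested with edgeR's quasi-likelihood test, 0 (0%) had a Benjamini-Hochberg adjusted p under 0.05, and the lowest adjusted p was 0.504. Without adjustment, 841 genes had a p under 0.05 (6.19% of those tested), 396 higher (2.91%) and 445 lower (3.27%) in hypoxia. DESeq2 called 1 gene (0.00736%). With limma voom and quality weights the numbers were 0 called and 1203 at an unadjusted p under 0.05. In 111 genes (0.817%) the values of the 5 hypoxia libraries did not overlap those of the 5 normoxia libraries, with hypoxia above in 37 (0.272%) and below in 74 (0.544%). Among 13593 genes some separate in this way by chance, and whether 111 is more than that was not tested.

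The measured differences were small, and for most genes the intervals bound them. The median gene differed 1.11-fold in either direction, and 90% of the log2 fold changes lay between -0.67 and 0.48. The 95% interval of the fold change lay within 1.5-fold either way for 7324 genes (53.9%) and within 2-fold for 10090 (74.2%). The intervals are for single genes and are not adjusted for their number. Point estimates exceeded 2-fold in 459 genes (3.38%), of which 136 were higher and 323 lower in hypoxia.

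Precision rose with abundance up to a log2 CPM of 8. The median standard error of the log2 fold change was 0.743 in the 713 genes with an average log2 CPM under 0. It was 0.495 from 0 to 2, 0.243 from 2 to 4 and 0.141 from 4 to 6. In the 2669 genes from 6 to 8 it was 0.113, and in the 664 genes at 8 and over 0.12. Changes of 2-fold in rarely detected genes were thus within the error of this design, while those in abundant genes were not.

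The split of directions across abundance classes, among the 841 genes at an unadjusted p under 0.05, was uneven, and its size varied between fits. Between log2 CPM 0 and 2, 36 of these genes were higher and 106 lower in hypoxia. Between 4 and 6 the numbers were close, 134 higher and 125 lower. Between 6 and 8, 125 were higher and 53 lower, and in the 664 most abundant genes, at 8 and over, 21 were higher and 22 lower. With size factors of the RLE kind the counts between 6 and 8 were 133 and 51, and with all libraries thinned to a common total 128 and 42. They were 316 and 141 without hypoxia replicate 5, 76 and 33 without normoxia replicate 4, and 109 and 33 without normoxia replicate 5. In the fit of the 10 male cord libraries alone they were 87 and 65, with 95 and 149 between 4 and 6 and 18 and 27 at 8 and over, and the total in that fit was 303 higher and 487 lower of 790. At 8 and over the counts were 78 and 39 without hypoxia replicate 5. They were 24 and 12 without normoxia replicate 5, and 11 and 10 without normoxia replicate 4. The medians over all genes from 0 to 2 and from 6 to 8 were -0.08 and 0.04 on the log2 scale, so both shifts were slight.

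**Figure D2:**
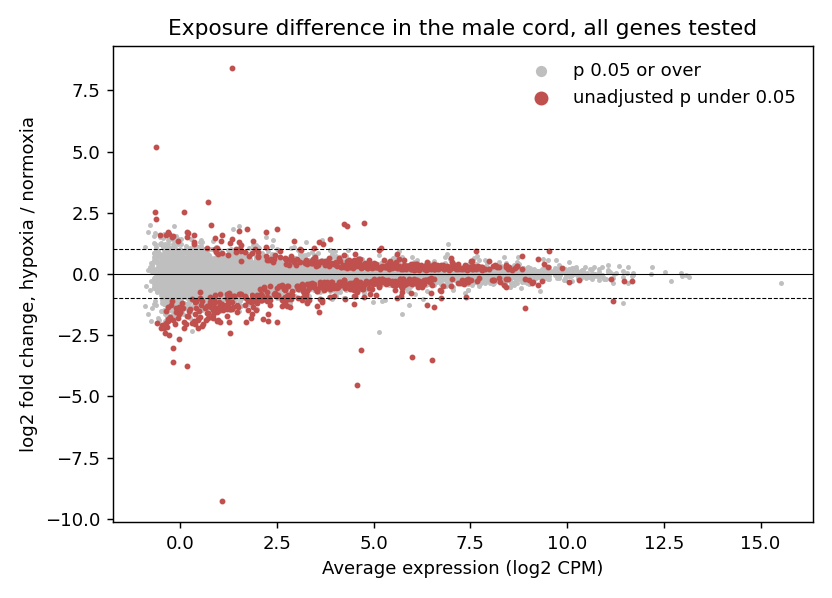
Average expression (x axis, log2 CPM) and log2 fold change of hypoxia over normoxia (y axis) for the 13593 genes tested in the male cord, with the 841 genes at an unadjusted p under 0.05 in red and dashed lines at a 2-fold change. No gene passed the adjusted threshold, and the scatter narrows as expression increases. The highest point is a gene without reads in normoxia, whose fitted value is not a measured fold.

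From each direction 2 IDs are described in full. Other fits called 3 genes, all higher in hypoxia, and the 2 of them with the lowest unadjusted p with all libraries are shown. ENSRNOG00000051439 was called only by DESeq2. ENSRNOG00000052376 and the gene not shown were called only without hypoxia replicate 5. The lower IDs have the lowest unadjusted p of genes that averaged at least 1 on the log2 CPM scale and kept their sign when single libraries were left out. None of the 4 passed the edgeR test with all libraries.

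ENSRNOG00000051439 had 0 reads in all 5 male normoxia cord libraries, which allows up to 0.0454 CPM over the group. The hypoxia libraries held 0.551, 0.491, 5.29, 7.24 and 3.23 CPM in replicates 1 to 5, from 5, 4, 59, 87 and 33 reads. All 5 hypoxia libraries lay above all normoxia libraries, but replicates 1 and 2 held few reads. Against a floor of 3 counts over the normoxia group, the hypoxia level was at least 81.9-fold higher. The gene had too few reads for the filter in the fits of male libraries alone, and it was tested only where the female libraries carried it past the filter or where no filter was set. DESeq2 called it among the 20 cord libraries with an adjusted p of 0.000128, while the edgeR adjusted p was 0.504, that of limma voom 0.517 and that of edgeR without a filter 0.15. These tests are therefore no firm support for the difference in males. In the female cord the order was the opposite one: normoxia females held 2.17 to 10.6 CPM and hypoxia females 0 to 1.18 CPM, with 2 of 5 hypoxia libraries at 0. No test of the difference between the sexes is given, since the high female values let the gene into the fit. In the medulla of the same males the gene was nearly absent. It had 0 reads in 4 of 5 normoxia and 4 of 5 hypoxia medulla libraries, and the others held 1.18 and 0.0897 CPM.

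ENSRNOG00000052376 averaged 36 ± 3.25 CPM (SD, n = 5) in male normoxia cord, with values of 36.7, 39.5, 38.3, 31.5 and 33.9 CPM. The hypoxia libraries held 56, 67, 65, 59.1 and 31 CPM in replicates 1 to 5, a mean of 55.6 ± 14.5 CPM (n = 5). Replicates 1 to 4 exceeded every normoxia library, and replicate 5 lay below them all. The hypoxia mean was 1.54 times the normoxia mean, a log2 fold change of 0.61 with an SE of 0.16 (edgeR adjusted p = 0.764). Without hypoxia replicate 5 the log2 fold change was 0.77 and the edgeR adjusted p 0.033. The same direction was measured in the female cord, at 46.1 ± 3.81 CPM in normoxia and 60.6 ± 10.6 CPM in hypoxia (n = 5 each; log2 fold change 0.55, SE 0.16, edgeR adjusted p = 0.0138). The difference between the sexes had an interval of -0.41 to 0.55 on the log2 scale. In the male medulla the means were 60.8 ± 7.53 CPM in hypoxia and 45.8 ± 8.41 CPM in normoxia (n = 5 each; edgeR adjusted p = 1), and the log2 fold change of 0.42 had an interval of 0.08 to 0.77.

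ENSRNOG00000017063 was measured at 65.4, 76.6, 59.2, 81 and 96.1 CPM in male normoxia cord and at 44.7, 46.7, 35.5, 44.2 and 59.3 CPM in male hypoxia cord. The groups met at their edges, where the highest hypoxia library, replicate 5, exceeded the lowest normoxia library by a small margin. The normoxia mean was 1.64-fold the hypoxia mean (log2 fold change -0.73, SE 0.16, edgeR adjusted p = 0.74). The other groups lay near male hypoxia cord. Female cord averaged 45 ± 10.7 CPM in normoxia and 44.7 ± 5.98 CPM in hypoxia (n = 5 each), and the male medulla 50.5 ± 3.62 and 51.7 ± 8.24 CPM (n = 5 each). The male difference was more negative than the female one (edgeR adjusted p = 0.00976 for the interaction). The ID was picked by its male difference, which is part of that term, so this test leans towards passing and is no independent support. In a fit that did not pair the regions of an animal, the interaction with region did not pass (log2 difference -0.77, SE 0.2, edgeR adjusted p = 1).

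ENSRNOG00000016751 was measured at 83.7, 101, 91, 92.1 and 95 CPM in male normoxia cord and at 62.1, 52.4, 65.9, 65.3 and 76.2 CPM in male hypoxia cord. No hypoxia library reached the normoxia range. The normoxia mean was 1.44-fold the hypoxia mean (log2 fold change -0.54, SE 0.12, edgeR adjusted p = 0.74). In the medulla of the same males the means were 85.3 ± 12.5 CPM in normoxia and 62.4 ± 12.9 CPM in hypoxia (n = 5 each; log2 fold change -0.44, SE 0.13, edgeR adjusted p = 1). The interval of the difference between the regions, in a fit that did not pair the regions of an animal, ran from -0.46 to 0.28. In the female cord the gene was higher in hypoxia, 79.1 ± 14.7 against 67.6 ± 9.76 CPM (n = 5 each; edgeR adjusted p = 0.0224). The difference between the sexes had an edgeR adjusted p of 0.00128. This ID too was picked by its male difference, which is part of the term, so the test leans towards passing.

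**Figure D3:**
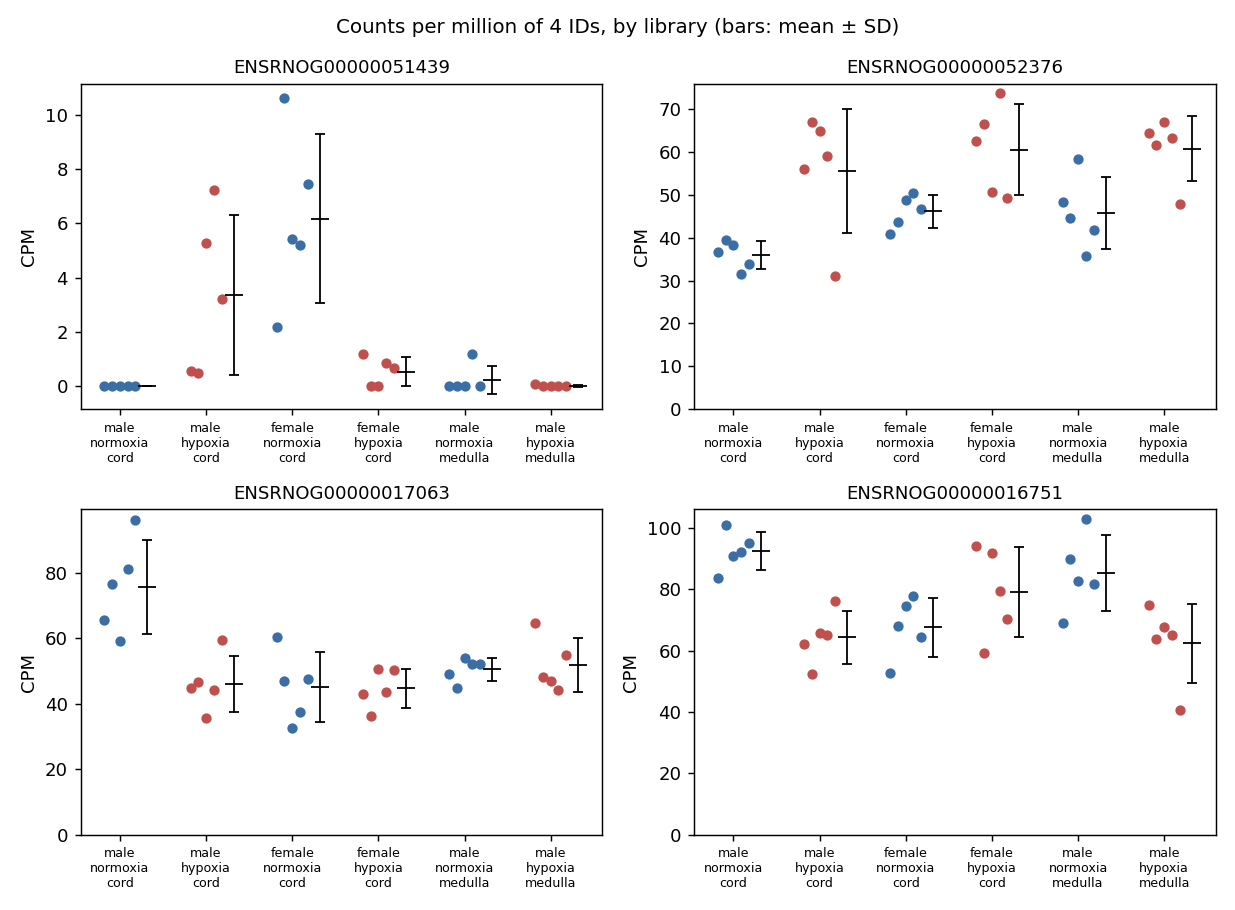
CPM of the 4 IDs (y axes) in single libraries of the 4 cord groups and of the male medulla (x axes), normoxia in blue and hypoxia in red, replicates 1 to 5 from left to right in each group, with bars for the mean ± SD. In ENSRNOG00000052376 the fifth male hypoxia cord library, at 31 CPM, lies below the normoxia libraries, and the other 4 lie above them.

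Hypoxia replicate 5 differed from the other hypoxia animals across many genes. Split at the midpoint of the group means, its values lay more often on the normoxia side than on its labelled one. Its median correlation was 0.961 with each group, while that of normoxia replicate 1 was 0.964 with its own group and 0.967 with hypoxia. Leaving out single libraries gave 631 to 1115 genes at an unadjusted p under 0.05 for 9 of the 10 libraries, and 1576 genes (833 higher and 743 lower) without hypoxia replicate 5. In that fit 2 genes passed the edgeR adjusted threshold (0.0145%), both higher in hypoxia. One is ENSRNOG00000052376. The adjusted counts were 0 when each of the other 9 libraries was left out. Without hypoxia replicate 5, ENSRNOG00000017063 had a log2 fold change of -0.83 (edgeR adjusted p = 0.0897) and ENSRNOG00000016751 one of -0.6 (edgeR adjusted p = 0.137). The label of this library gives no reason to set it aside, and it is included wherever its removal is not stated.

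Each library left out can be read against the genes that the remaining libraries picked. For every gene at an unadjusted p under 0.05 in the fit without a library, its own value was placed on the side of its group or of the other group, split at the midpoint of the remaining group means. Hypoxia replicate 5 lay on the hypoxia side in 265 of 1565 genes (16.9%), and in 39.5% of all genes. For hypoxia replicates 1, 3 and 4 the shares were 57.8%, 65.5% and 61.6%, and for replicate 2 42.6%. Among normoxia animals, replicates 2, 4 and 5 lay on the normoxia side in 63.4%, 58.4% and 60.2% of such genes, and replicates 1 and 3 in 44.2% and 36.2%. These 6 libraries over 50% were also over it among all genes tested, at 53.5% to 58.4%, and the other 4 were under it, at 39.5% to 47.8%. For hypoxia replicate 1 and normoxia replicate 4 the shares hardly differed from the 57.1% and 56.6% over all genes. The total of 10202589 reads in hypoxia replicate 5 and its 16682 detected genes lay within the range of the other male cord libraries. Genes are not independent of each other, and these shares describe the libraries without a test.

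**Figure D4:**
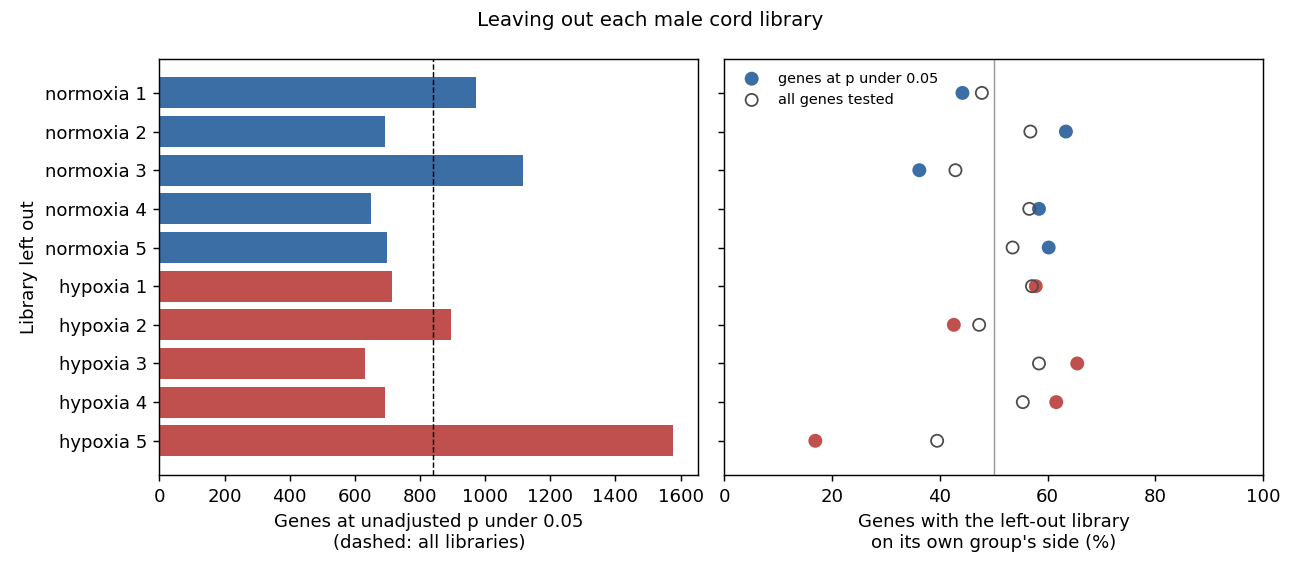
Left, the number of genes at an unadjusted p under 0.05 (x axis) when the library on the y axis is left out, with a dashed line at 841 for all libraries; right, the share of those genes (filled) and of all genes tested (open) in which the left-out library lies on the side of its own group. Hypoxia replicate 5 stands at 1576 genes and 16.9%, while the other libraries give 631 to 1115 genes and 36.2% to 65.5%.

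The male cord was next set against the female cord, to ask whether the exposure difference depended on sex. The 2 comparisons share no library. The median standard error was 0.18 on the log2 scale in both sexes, while the median difference was 1.11-fold in males and 1.28-fold in females, where 4458 genes (32.8%) were called. Differences past 2-fold were measured in 3.38% of genes in males and 12.3% in females. The male difference itself differed from the female one, by an interaction term, in 3155 genes (23.2%), and in 1562 when all 40 libraries shared the spread.

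The interaction genes had small, uncalled differences in males beside larger ones in females. In the 1365 genes with a more positive difference in males, the median log2 fold change was 0.15 in males and -0.51 in females. In the 1790 with a more negative one the medians were -0.19 and 0.83. The female difference was itself called in 2889 of the 3155 (91.6%), against 32.8% of all genes tested. The male difference had an unadjusted p under 0.05 in 412 (13.1%), against 6.19% of all genes tested. The signs were opposite in 2851 genes (90.4%). The choice of genes by the difference between the sexes favours each of these shares, so they are no independent support.

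Read from the male side, fewer of the genes that leaned with exposure had the same sign in females than among all genes, a difference that was not tested. Of the 841 genes at an unadjusted p under 0.05 in males, 28.9% had the same sign in females, against 37.5% of all genes tested. Of these 841, 297 (35.3%) were called in females, near the 32.8% of all genes. Among the 297, 14 were higher in both sexes and 29 lower in both, while 120 were higher in males and lower in females and 134 the reverse. Total reads also moved in opposite directions with exposure in the sexes, lower in hypoxia males and higher in hypoxia females (13570283 to 20650051 reads, against 8818241 to 13327037 in normoxia females), and the part of depth in this pattern was not tested.

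**Figure D5:**
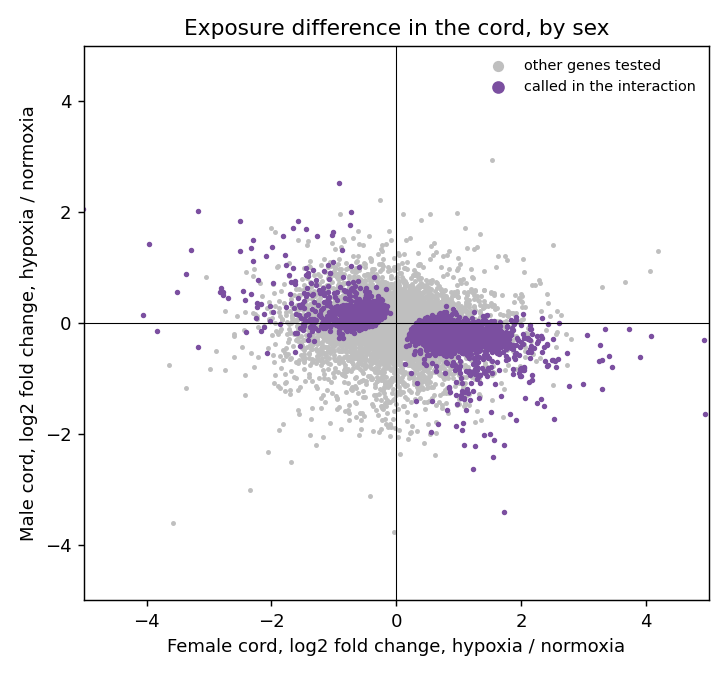
Log2 fold change of hypoxia over normoxia in the female cord (x axis) and the male cord (y axis) for genes tested in both, with the 3155 genes that passed the interaction test in purple; 10 of 13593 genes lie outside the axes. The purple genes spread along the female axis and stay near 0 on the male axis, mostly in the quadrants of opposite sign.

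The last comparison asked whether the exposure difference in the male cord differed from that in the medulla of the same males. In a fit of the 20 male libraries, edgeR called 0 of 14030 genes (0%) for a difference between the regions in the response to exposure, and 430 (3.06%) had an unadjusted p under 0.05. With each animal as a block the counts were 0 and 581, and limma voom with quality weights called 0. DESeq2 called 4 genes, all with a more negative difference in the cord. The numbers do not show that the regions responded alike.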

How the data were processed

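The authors deposited raw read counts per Ensembl gene ID, as whole numbers in 40 columns, each matched to a library by its label. TopHat2 2.1, HTSeq, edgeR and genome build rn6 are named, per the submitters' processing notes. Annotation release, strand setting and filters are not given in the sources read, which means that overlapping, antisense and near-identical genes may share or split reads. Of 20 pairs of male cord libraries within a group, 0 held identical values, and chi-square per degree of freedom was at least 18.2.

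Differences were tested with the edgeR 4.0.16 quasi-likelihood test in R 4.3.3 on these counts, with TMM factors, filterByExpr (minimum count 10) and Benjamini-Hochberg adjustment at 0.05. The 20 cord libraries shared the spread in the comparisons of exposure and sex, and the 20 male libraries in that of region. The region comparison did not pair cord and medulla of an animal, except where animal is named as a block. Standard errors and 95% intervals follow from the F statistic. CPM are per total reads. Floors cover counting error only. Alternatives were RLE factors, no filter, DESeq2 1.42.0, limma 3.58.1, other sets of libraries, blocks and leaving out each male cord library. The code was tested on simulated data.

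The fixed rule for IDs without symbols was to print 2 that rose and 2 that fell. Genes called in an alternative came first, ordered by unadjusted p with all libraries, then the lowest p. Of 3 such genes, all higher, 2 are printed. The members, lists and comparisons were chosen with earlier results of these data known. Thinning, the fit without the 10 most abundant genes, the bins of abundance and the reading of left-out libraries were added after seeing the data.

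By the series design, cord and medulla libraries of 1 sex, exposure and number are from 1 animal. Their deviations from group means correlated at 0.07 to 0.29, positive in 10 of 10 males.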

Additional observations from a re-analysis of the deposited data

Results flagged for a closer look

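In 32 groups of 5 values, the highest or lowest value stood far from the rest in 5. Chance flags about 1 in 20 groups, but the 5 are not independent: 2 are single values beside zeros, where the gap is always at its maximum, and 2 are nested shares of the same library. ENSRNOG00000051439 had 1.18 CPM in male normoxia medulla replicate 4 and 0.0897 CPM in male hypoxia medulla replicate 1, each beside 4 libraries at 0. ENSRNOG00000052376 had 47.8 CPM in male hypoxia medulla replicate 5, the animal whose cord library was also the lowest of its group in this gene. In male hypoxia cord replicate 2 the most abundant gene took 5.25% of the reads and the 10 most abundant genes 11%, against up to 3.76% and 9.74% in the other hypoxia libraries.

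The exposure difference in the cord differed between males and females in 3155 genes, and in 1562 when all 40 libraries shared the spread. Among the IDs described, it differed for ENSRNOG00000017063 (edgeR adjusted p = 0.00976) and ENSRNOG00000016751 (edgeR adjusted p = 0.00128). Both were picked by their male difference, which is part of that term, so these tests lean towards passing. For ENSRNOG00000051439 no such test is given, since the high female values let it into the fit.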

How the results depend on the processing

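The edgeR count of 0 genes in the male cord was the same under 19 of 21 alternatives. DESeq2 called 1 gene, and leaving out single male cord libraries gave 0 to 2, with 2 only without hypoxia replicate 5. At an unadjusted p under 0.05 the 841 genes became 1323 without a filter on low counts (of 21230 tested), 549 when all 40 libraries shared the spread and 1576 without hypoxia replicate 5. The interaction of sex and exposure gave 2578 to 3425 genes when single male cord libraries were left out, and 1562 with all 40 libraries. The interaction of region and exposure gave 0 genes in 15 of 16 alternatives and 4 with DESeq2, and leaving out single libraries gave 0 to 0. At an unadjusted p under 0.05 its 430 genes became 889 without a filter, 279 with all 40 libraries and 711 without hypoxia replicate 5. Without a filter more genes were tested. The shares of those tested were then 6.23% for exposure and 3.96% for region, against 6.19% and 3.06% with the filter. The cause of these moves was not tested. The log2 fold changes of the 4 IDs kept their sign under every alternative that could be fitted. For the 2 lower IDs, the rule that picked them required this when single libraries were left out. For them those fits are therefore no support. ENSRNOG00000051439 fell under the filter in 3 alternatives, the fits of male libraries.

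With the replicate number of the labels as a block, 0 genes were called among the 20 cord libraries (1026 at an unadjusted p under 0.05) and 0 among the 10 male cord libraries (953). The sex interaction called 3372 with that block. Same-numbered hypoxia and normoxia males deviated from their group means with correlations of -0.15 to 0.1. Of the 5, 1 correlated best with its own number. Cord and medulla of 1 animal also correlated weakly, at 0.07 to 0.29. These values therefore cannot tell whether same-numbered samples share more than a number. The difference in detected genes, -340 in hypoxia, was -57 after thinning. The planned medians of gene lists were not run, for want of symbols.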
